A study of Arabidopsis thaliana with 12 samples.

Results

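The late embryogenesis abundant (LEA) family of Arabidopsis thaliana was followed here through its 51 listed loci, chosen by locus identifier alone, of the 33602 genes counted. They comprise 18 loci of the LEA_4 group, 10 dehydrins, 6 seed maturation proteins (SMP), 4 LEA_3, 3 LEA_2, 3 LEA_1, 3 PvLEA18, 2 LEA_5 (the EM proteins) and 2 AtM loci. By where each is known to be expressed, 25 were treated as seed-type, 14 as stress-type and 4 as seed-and-stress, and 8 were left unassigned. RNA was sequenced from whole seedlings grown for 6 days in shaken liquid culture and then held for 1 h in fresh medium. The 4 groups of 3 libraries were ixr1-1 in 600 nM isoxaben, ixr1-1 in DMSO, Col-0 wild type in 600 nM isoxaben and Col-0 wild type in DMSO, and every group received the DMSO solvent. Isoxaben is a herbicide that stops cellulose synthesis, and ixr1-1 is an allele of the cellulose synthase gene CESA3 that makes seedlings resistant to it. The mutant was represented by 1 allele, and the sources used here do not give the origin of its seed lots. Each flask of seedlings was split between an isoxaben and a DMSO flask, and the labels do not tie a replicate number to a flask, so a p-value covers the variation among these libraries, which may be technical.

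LEA proteins are small, very hydrophilic and mostly unstructured in solution. Many accumulate in the embryo as the seed dries, when abscisic acid and the regulators ABI3 and ABI5 switch on their genes, and they are known to protect membranes and enzymes during drying. Others, among them the dehydrins ERD10, ERD14, COR47 and LTI30 and the chloroplast proteins COR15A and COR15B, are made in leaves and roots, and cold, drought or abscisic acid raises many of them. Transcripts of the seed group are normally lost soon after germination.

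Library totals ran from 8521491 to 20658035 counts. All 51 loci were present in the files, and 25 passed the filter on low counts: 13 of 14 stress-type, 7 of 25 seed-type, 3 of 4 seed-and-stress and 2 of 8 unassigned. Of the 26 that were not tested, 3 had 0 counts in all 12 libraries, all of them SMP loci (AT3G22490, AT3G22500 and AT5G53270). A low member could pass that filter through the group in which it is high, so counts over the tested members do not describe the family. Levels are CPM, the count of a gene relative to the TMM-scaled total of its library. In whole seedlings, fewer cells of a type and less RNA per cell cannot be told apart. Both shoot and root markers of the seedling were present: 8 shoot photosynthesis genes summed to 25370 to 29900 CPM in ixr1-1 libraries and 31770 to 35800 CPM in Col-0 libraries, and 11 root genes to 316.5 to 349.7 CPM in ixr1-1 libraries and 336.8 to 358.0 CPM in Col-0 libraries.

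The control regions of members on which the results turn are shown first, with the short motifs found there. They are the 250 bases before the annotated gene start, or the stretch free of annotated exons where that is shorter, taken from RefSeq's TAIR10.1. Capitals mark ACGTG, the core of the abscisic acid response element, CCGAC, the core of the cold and dehydration element, and CATGCA, the RY core of seed promoters. Each motif was searched on both strands, so that capitals may show its reverse complement, and CACGTG holds the first motif on both strands. First come the 5 members that were called higher in ixr1-1 in at least 1 medium, then 2 cold-responsive members.
AT2G21490 (dehydrin LEA), chr2:9207126-9207375, minus strand: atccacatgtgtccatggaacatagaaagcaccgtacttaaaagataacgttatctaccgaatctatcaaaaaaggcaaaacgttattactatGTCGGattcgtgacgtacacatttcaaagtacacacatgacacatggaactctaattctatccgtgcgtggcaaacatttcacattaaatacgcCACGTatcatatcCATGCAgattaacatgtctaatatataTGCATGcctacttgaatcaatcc
AT4G21020 (LEA_4), chr4:11227937-11228186, plus strand: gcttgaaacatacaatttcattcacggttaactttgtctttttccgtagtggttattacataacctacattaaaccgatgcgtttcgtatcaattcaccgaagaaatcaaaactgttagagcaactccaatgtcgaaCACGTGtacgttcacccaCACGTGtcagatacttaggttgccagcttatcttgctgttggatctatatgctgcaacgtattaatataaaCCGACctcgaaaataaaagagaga
M17 (AtM), chr2:17206202-17206451, plus strand: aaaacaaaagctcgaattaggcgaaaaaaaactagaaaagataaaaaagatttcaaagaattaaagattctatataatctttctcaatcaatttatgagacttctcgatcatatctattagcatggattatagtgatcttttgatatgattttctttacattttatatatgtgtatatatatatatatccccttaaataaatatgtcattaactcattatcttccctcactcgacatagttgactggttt
AT4G38410 (dehydrin), chr4:17980558-17980677, plus strand: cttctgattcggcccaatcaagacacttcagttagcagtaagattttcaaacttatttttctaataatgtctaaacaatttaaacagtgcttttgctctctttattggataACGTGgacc
SAG21 (LEA_3), chr4:1047106-1047355, minus strand: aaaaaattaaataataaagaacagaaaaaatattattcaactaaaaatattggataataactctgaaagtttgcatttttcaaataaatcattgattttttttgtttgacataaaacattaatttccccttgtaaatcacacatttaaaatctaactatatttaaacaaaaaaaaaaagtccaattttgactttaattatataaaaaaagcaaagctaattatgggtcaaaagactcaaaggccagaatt
LTI30 (dehydrin), chr3:18940429-18940642, plus strand: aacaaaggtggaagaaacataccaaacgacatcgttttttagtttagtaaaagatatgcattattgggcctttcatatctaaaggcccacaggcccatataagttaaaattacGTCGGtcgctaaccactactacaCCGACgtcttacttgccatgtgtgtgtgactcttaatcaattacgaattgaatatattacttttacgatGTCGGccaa
COR15A (LEA_4), chr2:17712331-17712580, minus strand: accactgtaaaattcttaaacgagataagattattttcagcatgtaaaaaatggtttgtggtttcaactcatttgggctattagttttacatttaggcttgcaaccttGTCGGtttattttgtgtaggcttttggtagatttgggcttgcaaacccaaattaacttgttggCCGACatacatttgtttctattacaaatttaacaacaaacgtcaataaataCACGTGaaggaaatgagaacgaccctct

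The dehydrin gene AT2G21490 held all 3 motifs, with 2 copies of CATGCA 50 and 23 bases before the start. AT4G21020 held 2 CACGTG boxes and 1 CCGAC, LTI30 held 3 CCGAC and COR15A 2 CCGAC beside a CACGTG, while the windows of M17 and SAG21 held none of the 3. Over the whole family, ACGTG lay in the 250-base windows of 36 of 51 members (70.6%), against 22.9% of 27443 protein-coding genes. It was present in 22 of 25 seed-type members, all 4 seed-and-stress members, 7 of 14 stress-type members and 3 of 8 unassigned members. CCGAC lay in 18 of 51 members (35.3%), 11 of 25 seed-type and 4 of 14 stress-type, against 12% of protein-coding genes, and CATGCA in 9 of 51 (17.6%), 7 of them seed-type, against 8.43%. These shares depend on where a gene is taken to start. The start in the files lay within 100 bases of the RefSeq start for 38 of 51 members, and at most 3543 bases away for the others. With the files' own starts 8 of 14 stress-type and 9 of 25 seed-type members held CCGAC, which turns the order of these types round, while the ACGTG counts were 22 of 25 seed-type and 7 of 14 stress-type again. With the RefSeq start, the window of COR47 held 1 CATGCA and that of ERD10 none of the 3 motifs. For COR47 that start is not the one in the files, so this window need not lie before the gene as counted. A match is a description of the letters and says nothing of a factor bound there.

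Among the levels, the stress-type members, dehydrins and others, dominated the family in every library. Stress-type members took 98.38 to 99.19% of all LEA CPM in ixr1-1 libraries and 98.54 to 99.18% in Col-0 libraries, and seed-type members 0.228 to 0.729% in ixr1-1 libraries and 0.122 to 0.200% in Col-0 libraries. Per kilobase of the files' gene length, ERD14, an acidic dehydrin that binds ions and shields other proteins, was the most abundant at 512.8 CPM per kb. It was followed by HIRD11, a small histidine-rich dehydrin that binds metals (447.0), AT2G23120 of the PvLEA18 group (294.7), COR47 (291.5), AT2G44060 of the LEA_2 group (252.7), SAG21 of the LEA_3 group (239.1) and ERD10 (230.7). The most abundant seed-and-stress member, AT3G02480, reached 12.73 CPM per kb, and the most abundant seed-type member, AT3G15670, 0.864 CPM per kb. COR15A, one of the strongest cold-induced genes of leaves, reached 1.47 CPM per kb, and its tandem neighbour COR15B 0.171 CPM per kb, with 1, 1 and 3 counts in ixr1-1 in isoxaben, 1, 6 and 1 in ixr1-1 in DMSO, 0, 2 and 0 in Col-0 in isoxaben, and 0, 3 and 3 in Col-0 in DMSO.

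**Figure D1:**
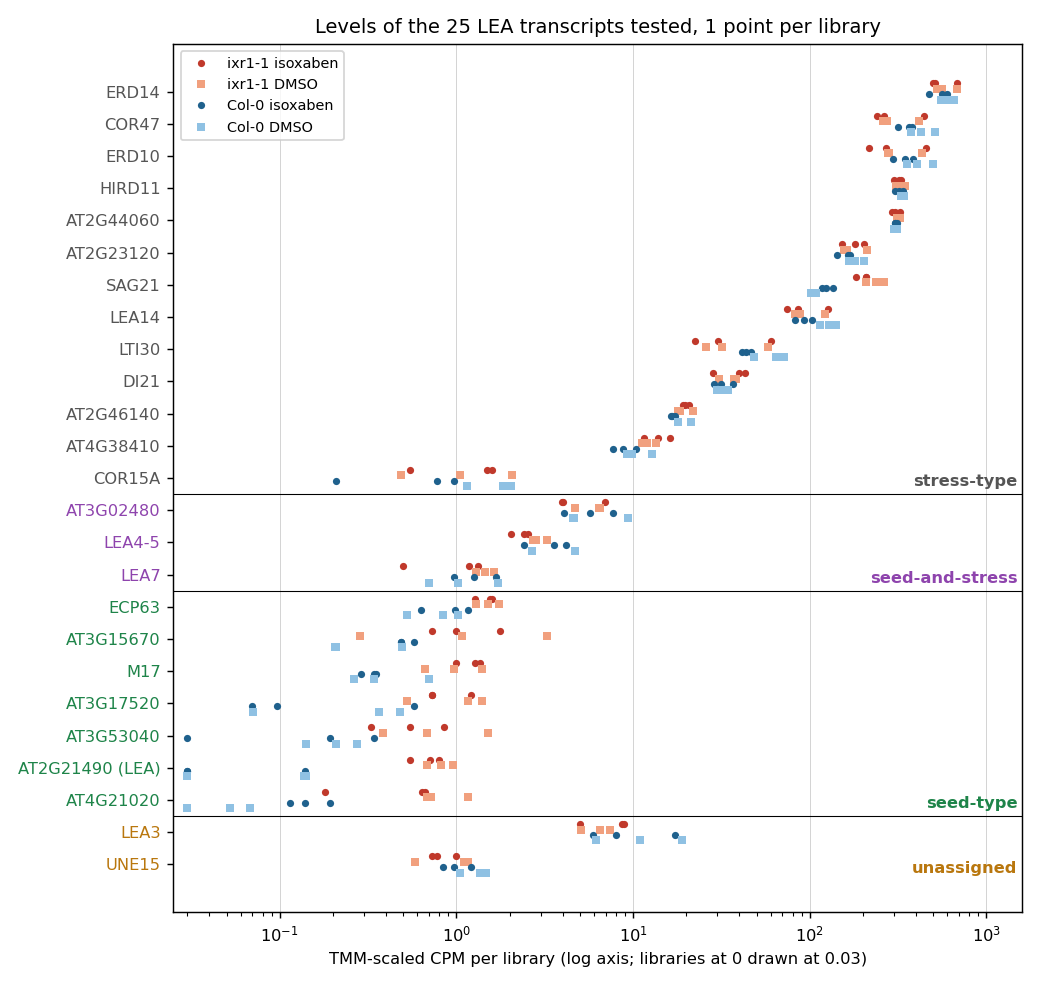
TMM-scaled CPM of the 25 LEA transcripts that passed the filter, 1 point per library on a log axis, with the 4 groups by colour and the members by type. Stress-type members other than COR15A lie between 7.73 and 684 CPM in every library, and seed-type members reach at most 3.27 CPM.

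Whether 1 h of isoxaben changes the family was asked in each genotype. No LEA member was called in either one by edgeR's quasi-likelihood test of the 4 groups, fitted with no replicate block, at an adjusted p of 0.05, where 0.78% of all 20379 genes tested were called in Col-0 (0.613% higher and 0.167% lower) and 0% in ixr1-1. Of the 25 tested members, 2 had an unadjusted p under 0.05 in Col-0 and 1 in ixr1-1, against 1387 and 742 of all 20379 genes. Beside these shares the member counts do not set the family apart. DESeq2 and limma-voom also called 0 members in each genotype. Seed-type transcripts summed to 9.35 ± 1.37 CPM in isoxaben and 11.98 ± 5.30 CPM in DMSO in ixr1-1, and to 3.90 ± 0.907 CPM in isoxaben and 3.37 ± 0.335 CPM in DMSO in Col-0 (SD, n = 3 each). The stress-type sum was 2404 ± 410 CPM in isoxaben and 2502 ± 354 CPM in DMSO in ixr1-1, and 2349 ± 182 CPM in isoxaben and 2637 ± 242 CPM in DMSO in Col-0. The median log2 fold change over the 13 tested stress-type members was -0.21 in Col-0 and -0.04 in ixr1-1, against -0.0014 in Col-0 and -0.0019 in ixr1-1 over all genes.

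In Col-0 the members with the smallest p were SAG21 and COR15A. COR15A had 0.773, 0.974 and 0.209 CPM in the isoxaben libraries and 2.05, 1.83 and 1.153 CPM in the DMSO libraries of Col-0, a log2 fold change of -1.30 ± 0.52 (SE) with an adjusted p of 0.59 in edgeR. All 3 isoxaben libraries were below all 3 DMSO libraries, on 3 to 17 counts against 22 to 30. LEA14, an atypical LEA protein of the more hydrophobic LEA_2 group, had 103, 93.1 and 82.9 CPM in isoxaben and 128, 142 and 115 CPM in DMSO in Col-0. The Col-0 groups again did not overlap, and the log2 fold change was -0.46 ± 0.21 (SE) with an adjusted p of 0.79 in edgeR. In an edgeR fit of the 6 Col-0 libraries alone the adjusted p of LEA14 was 0.027. Without both ixr1-1 libraries numbered 2, an alternative chosen after the values were seen, it was 0.015. The fit of 12 libraries shares 1 estimate of the spread over both genotypes.

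Some members were called between the genotypes. In DMSO, 3 of the 25 tested members were called and all 3 were higher in ixr1-1, where 17.2% of all genes were called, 9.79% higher and 7.42% lower. In isoxaben 4 were called, again all higher in ixr1-1, beside 12.8% of all genes called, 6.92% higher and 5.85% lower. Both counts are near the share of all genes and do not set the family apart. The called members amount to 5 different ones, of which SAG21 and AT2G21490 were called in both media. Apart from those called in the same medium, the tested stress-type members had log2 fold changes of -0.61 to 0.17 in DMSO and -0.21 to 0.91 in isoxaben. The 3 tested seed-and-stress members (-0.45 to 0.25 in DMSO, -0.59 to -0.23 in isoxaben) and the 2 unassigned ones (-0.90 and -0.43 in DMSO, -0.52 and -0.27 in isoxaben) were not called either.

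**Figure D2:**
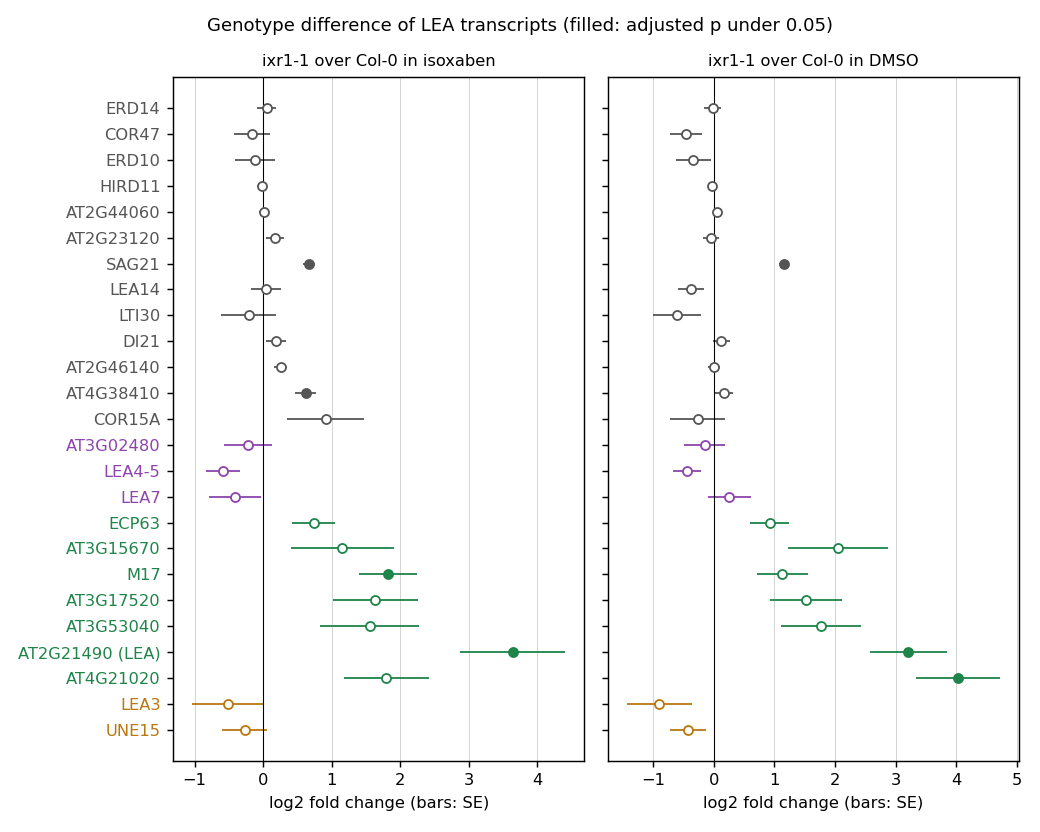
Log2 fold change of ixr1-1 over Col-0 with its SE for the 25 tested members, in isoxaben on the left and in DMSO on the right, with filled points for an adjusted p under 0.05. SAG21 at 0.67 and 1.16 has the narrowest error of the called members, and the 7 seed-type members that passed the filter, which can let a gene in through ixr1-1 alone, lie between 0.74 and 4.03.

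SAG21, also called AtLEA5, is a LEA_3 protein of mitochondria that senescence and oxidative stress induce (chromosome 4, 1046204 to 1046997, minus strand, in the files). Its level was 182, 208 and 208 CPM in ixr1-1 in isoxaben, 207, 265 and 237 CPM in ixr1-1 in DMSO, 136, 124 and 117 CPM in Col-0 in isoxaben, and 102, 108 and 108 CPM in Col-0 in DMSO. Every ixr1-1 library was above every Col-0 library, the nearest pair being 182 and 136 CPM. The log2 fold change of ixr1-1 over Col-0 was 1.16 ± 0.09 (SE) in DMSO, with an adjusted p of 1.3e-07, and 0.67 ± 0.09 (SE) in isoxaben, with an adjusted p of 6.4e-05 (edgeR). Within genotypes it moved in opposite directions, with a log2 fold change of isoxaben over DMSO of -0.25 ± 0.08 (SE) in ixr1-1 and 0.24 ± 0.09 (SE) in Col-0, neither of which was called. The difference between these responses, the interaction, was -0.49 ± 0.12 (SE) with an adjusted p of 0.13 in edgeR, where 0.314% of all genes (0.0589% higher and 0.255% lower) and 0 LEA members were called. The unadjusted p of SAG21 there was 0.00071, and 2 of 25 members were under 0.05 unadjusted, beside 971 of all 20379 genes. DESeq2 gave the interaction of SAG21 an adjusted p of 0.043, and without ixr1-1 DMSO library 1 edgeR gave 0.024.

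AT4G38410, a dehydrin with a far lower level (chromosome 4, 17980940 to 17981719, plus strand), was called in isoxaben alone. It had 13.9, 11.5 and 16.1 CPM in ixr1-1 in isoxaben and 7.73, 8.77 and 10.4 CPM in Col-0 in isoxaben, with no overlap. In DMSO the ixr1-1 libraries had 13.6, 11.3 and 11.98 CPM and the Col-0 libraries 9.89, 9.28 and 12.8 CPM, and there the groups overlapped. The log2 fold change in isoxaben was 0.62 ± 0.15 (SE) with an adjusted p of 0.011 in edgeR, which became 0.052 without Col-0 isoxaben library 2 and 0.068 without ixr1-1 isoxaben library 3. Its interaction was 0.45 ± 0.21 (SE) and not called (adjusted p 1.0).

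The summed level of seed-type LEA transcripts lay higher in every ixr1-1 library than in any Col-0 library. Summed over all 25 loci, they came to 8.15, 10.8 and 9.06 CPM in ixr1-1 in isoxaben, 17.3, 6.68 and 11.98 CPM in ixr1-1 in DMSO, and 2.99 to 4.93 CPM in the 6 Col-0 libraries. This sum was not tested as such. The mean of the genotype was 10.7 CPM in ixr1-1 and 3.64 CPM in Col-0, a ratio of 2.93. These sums rest on 791 counts in ixr1-1 and 329 counts in Col-0. The 18 seed-type loci below the filter had 260 counts in ixr1-1 and 126 in Col-0, a ratio of CPM of 2.32 with a 95% interval of 1.87 to 2.90. Intervals on counts cover counting error only, and a floor of 3 counts per group is used where a group has 0.

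Taken locus by locus over the 6 libraries of each genotype, the 95% counting interval of the ratio lay above 1 for 12 seed-type members, held 1 for 5 and lay below 1 for 0. EM1 was set against 0 counts, and 7 loci were at or under the floor in both genotypes. Of the 14 stress-type members, the interval lay above 1 for 7 and below 1 for 5. For the abundant stress-type members these intervals are far narrower than the spread between libraries and are no test of the genotype. They are no test for seed-type members either, since they pool the libraries and leave out the spread between them. AT3G15670 had an interval of 1.94 to 4.35, while its ixr1-1 libraries in DMSO ran from 0.286 to 3.27 CPM. The share of all genes with such an interval is not given here.

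AT2G21490, the seed dehydrin called LEA in the annotation (chromosome 2, 9206016 to 9207125, minus strand), had 6, 10 and 12 counts in ixr1-1 in isoxaben, 7, 20 and 7 in ixr1-1 in DMSO, 0, 0 and 2 in Col-0 in isoxaben, and 2, 2 and 0 in Col-0 in DMSO. Its lowest ixr1-1 library stood at 0.543 CPM and its highest Col-0 library at 0.141 CPM. The adjusted p was 0.0016 in DMSO and 0.0043 in isoxaben (edgeR). From the summed counts the ratio of ixr1-1 over Col-0 was 14.6 in isoxaben (95% counting interval 3.69 to 127) and 10.2 in DMSO (3.66 to 39.8).

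AT4G21020, a LEA_4 protein (chromosome 4, 11228187 to 11229577, plus strand), had 2, 9 and 10 counts in ixr1-1 in isoxaben, 10, 15 and 7 in ixr1-1 in DMSO, 2, 2 and 2 in Col-0 in isoxaben, and 1, 0 and 1 in Col-0 in DMSO. It was called in DMSO (adjusted p 0.00048 in edgeR), where the summed counts gave a ratio of 19.3 with an interval of 4.92 to 166. In isoxaben the ratio was 3.66, with a lower 95% counting bound of 1.43 and an adjusted p of 0.064, which became 0.028 without ixr1-1 isoxaben library 1, the library with 2 counts.

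M17, a seed protein of the AtM pair (chromosome 2, 17206510 to 17207698, plus strand), had 1.36, 1.27 and 0.992 CPM in ixr1-1 in isoxaben, 1.401, 0.668 and 0.974 CPM in ixr1-1 in DMSO, 0.290, 0.344 and 0.349 CPM in Col-0 in isoxaben, and 0.341, 0.703 and 0.262 CPM in Col-0 in DMSO. The groups did not overlap in isoxaben, where the log2 fold change was 1.82 ± 0.43 (SE) and the adjusted p 0.0085 in edgeR. They overlapped in DMSO through the second library of each genotype, at 1.13 ± 0.42 (SE) and an adjusted p of 0.071, which became 0.028 without Col-0 DMSO library 2 and 0.049 without ixr1-1 DMSO library 2. Its partner M10 had 35 counts in the 6 ixr1-1 libraries and 33 in the 6 Col-0 libraries.

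AT3G15670 of the LEA_4 group showed how unevenly these transcripts were spread among ixr1-1 libraries. It had 11, 25 and 11 counts in ixr1-1 in isoxaben and 28, 6 and 11 counts in ixr1-1 in DMSO, against 5, 10 and 7 counts in Col-0 in isoxaben and 3, 7 and 4 in Col-0 in DMSO. The first DMSO library of ixr1-1 stood at 3.27 CPM and the second at 0.286 CPM, inside the Col-0 range of 0.205 to 0.573 CPM. Its adjusted p in DMSO was 0.12 with all libraries and 0.0026 without that second library (edgeR). ECP63, another LEA_4 protein of the embryo, had 1.27, 1.56 and 1.59 CPM in ixr1-1 in isoxaben, 1.52, 1.29 and 1.75 CPM in ixr1-1 in DMSO, 1.16, 0.631 and 0.976 CPM in Col-0 in isoxaben, and 1.02, 0.844 and 0.524 CPM in Col-0 in DMSO. The genotypes did not overlap, but ECP63 missed the threshold of edgeR in both media, with log2 fold changes of 0.92 ± 0.32 (SE) in DMSO and 0.74 ± 0.31 (SE) in isoxaben. Its adjusted p in DMSO was 0.052, and became 0.046 without Col-0 DMSO library 1 and 0.048 without Col-0 isoxaben library 2.

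EM1, a LEA_5 protein of the dry seed, was counted 1, 1 and 4 times in ixr1-1 in isoxaben and 3, 1 and 7 times in ixr1-1 in DMSO, and 0 times in all 6 Col-0 libraries. With a floor of 3 counts put in for the Col-0 libraries, its ratio of ixr1-1 over Col-0 was 6.38. That value leaves out the counting error of the ixr1-1 libraries and is no bound. Its paralog EM6 had 1, 3 and 3 counts in ixr1-1 in isoxaben, 3, 1 and 1 in ixr1-1 in DMSO, 1, 1 and 1 in Col-0 in isoxaben, and 2, 1 and 3 in Col-0 in DMSO (ratio 1.5, 0.580 to 4.03), so that a difference was not detectable at this depth. AT5G44310 had 41 counts in ixr1-1 and 2 in Col-0 (ratio 23.1, 5.99 to 197). The 6 SMP loci had 30 counts in ixr1-1 and 30 in Col-0 (ratio 1.13, 0.656 to 1.93), of which RAB28 held 27 in ixr1-1 and 25 in Col-0. RAB18, a dehydrin of guard cells and seeds that abscisic acid induces, had 3, 1 and 3 counts in ixr1-1 in isoxaben, 6, 3 and 2 in ixr1-1 in DMSO, 0, 2 and 4 in Col-0 in isoxaben and 1, 1 and 0 in Col-0 in DMSO, a ratio of 2.53 (1.05 to 6.73) for ixr1-1 over Col-0.

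Genes of seed storage proteins and oil bodies moved with the genotype as well. These 21 loci, which mark seed tissue, summed to 120.2, 458.0 and 695.1 CPM in ixr1-1 in isoxaben, 237.3, 758.7 and 644.1 CPM in ixr1-1 in DMSO, and 2.03 to 4.09 CPM in the 6 Col-0 libraries. Of the 20 tested, 19 were called higher in ixr1-1 in DMSO and 16 in isoxaben, with OLEO4, an oil body protein, 3.68 ± 0.34 (SE) higher on the log2 scale in DMSO (adjusted p 1.7e-06, edgeR). Of the 21, 1 was at 0 in all ixr1-1 libraries and 4 in all Col-0 libraries. The order of libraries was not the same for the LEA transcripts of the seed: the first ixr1-1 library of each medium was lowest in storage transcripts, while the first DMSO library was the highest of all 12 in seed-type LEA transcripts. In isoxaben the first ixr1-1 library was the lowest of its group in both sums. The part of seed tissue in the difference of the LEA transcripts was not tested. With the storage level as a covariate, 0 LEA members were called between genotypes in either medium, at adjusted p of 1.0 in edgeR, and the storage sums of the genotypes do not overlap. The log2 fold changes in that fit were 2.57 in isoxaben and 2.10 in DMSO for AT2G21490, 2.90 in DMSO for AT4G21020, 3.77 in isoxaben for M17, 0.31 in isoxaben for AT4G38410, and -0.0054 in isoxaben and 0.46 in DMSO for SAG21. A lost call in that fit therefore does not show that a difference was absent.

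**Figure D3:**
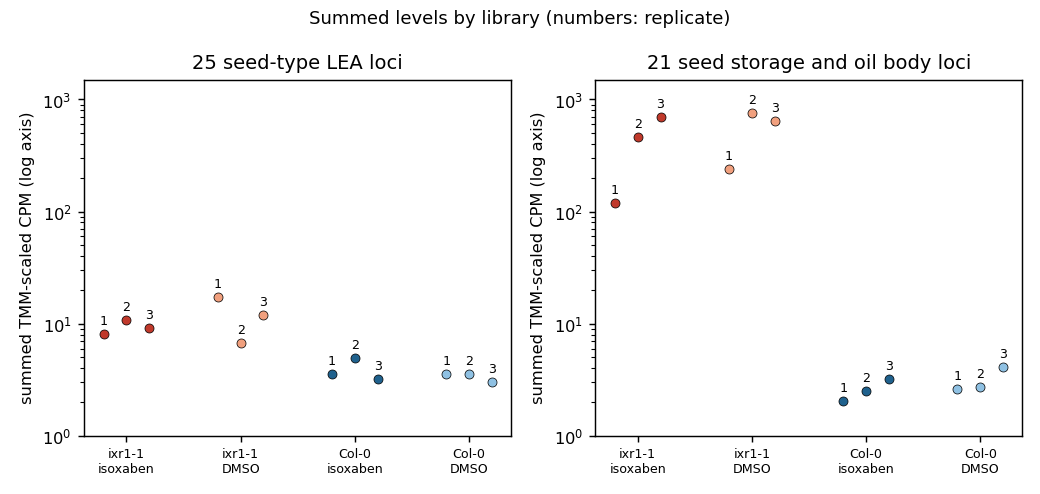
Summed TMM-scaled CPM on a log axis for the 25 seed-type LEA loci (left) and the 21 seed storage and oil body loci (right), 1 numbered point per library. All ixr1-1 libraries lie above all Col-0 libraries in both panels, by far more in the storage panel, and the ixr1-1 libraries are ordered differently in the panels.

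Several cold-responsive members differed widely among the ixr1-1 libraries. COR47, an acidic dehydrin of cold acclimation, had 239.8, 444.9 and 262.1 CPM in ixr1-1 in isoxaben, 272.2, 416.0 and 259.5 CPM in ixr1-1 in DMSO, 364.9, 379.2 and 316.9 CPM in Col-0 in isoxaben, and 425.5, 509.4 and 373.1 CPM in Col-0 in DMSO. LTI30, a basic dehydrin that binds membranes in the cold, had 22.6, 60.1 and 30.1 CPM in ixr1-1 in isoxaben, 25.9, 58.2 and 31.7 CPM in ixr1-1 in DMSO, 43.8, 46.8 and 41.1 CPM in Col-0 in isoxaben, and 64.6, 71.6 and 48.1 CPM in Col-0 in DMSO. In both media the library of ixr1-1 numbered 2 was far above the others of its group, and the other 4 ixr1-1 libraries lay below all 6 Col-0 libraries for both genes. Library 2 was also the highest of both Col-0 groups for the 2 genes. For COR47 it was 1.77 times the mean of the other 2 libraries in ixr1-1 in isoxaben, 1.56 in ixr1-1 in DMSO, 1.11 in Col-0 in isoxaben and 1.28 in Col-0 in DMSO, and for LTI30 the ratios were 2.29, 2.02, 1.10 and 1.27 in the same order.

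ERD10, the close paralog of COR47, followed the same libraries with 216.7, 456.3 and 271.9 CPM in ixr1-1 in isoxaben, 281.8, 432.5 and 277.4 CPM in ixr1-1 in DMSO, 382.7, 346.7 and 295.4 CPM in Col-0 in isoxaben, and 405.8, 495.5 and 355.6 CPM in Col-0 in DMSO. LEA14 had 73.9, 126.7 and 85.4 CPM in ixr1-1 in isoxaben and 88.4, 122.0 and 82.5 CPM in ixr1-1 in DMSO. Over all genes tested, 140 of 20379 (0.687%) were at least 1.5 times the mean of the other 2 libraries in library 2 of both ixr1-1 groups, and so were 3 of the 25 LEA members (12%), namely COR47, ERD10 and LTI30. Library 2 of ixr1-1 in DMSO was also the most deeply sequenced of the 12, at 20658035 counts, while its counterpart in isoxaben had 13648295.

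Calls of these members between genotypes changed when those 2 libraries were left out. With all 12 libraries the log2 fold change of ixr1-1 over Col-0 in DMSO was -0.46 ± 0.27 (SE) for COR47, -0.61 ± 0.39 (SE) for LTI30, -0.38 ± 0.21 (SE) for LEA14 and -0.34 ± 0.29 (SE) for ERD10, with adjusted p of 0.30, 0.35, 0.28 and 0.50 in edgeR. Without both ixr1-1 libraries numbered 2, an alternative chosen after the values were seen, they were called lower in ixr1-1, at -0.71 (adjusted p 0.0012) for COR47, -1.08 (0.0083) for LTI30, -0.58 (0.0014) for LEA14 and -0.58 (0.046) for ERD10. The libraries left out were those in which these genes were high in ixr1-1. Library 2 of Col-0 in DMSO, also the highest of its group for them, was kept. This choice by itself lowers the ixr1-1 mean and narrows its spread, so these calls are no test of the genotype. Without those 2 ixr1-1 libraries, 11 members were called in DMSO, 7 higher and 4 lower, and 7 in isoxaben, 6 higher and 1 lower. The share of all genes called in that fit is not given here, so these counts do not set the family apart. What sets library 2 apart was not tested.

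**Figure D4:**
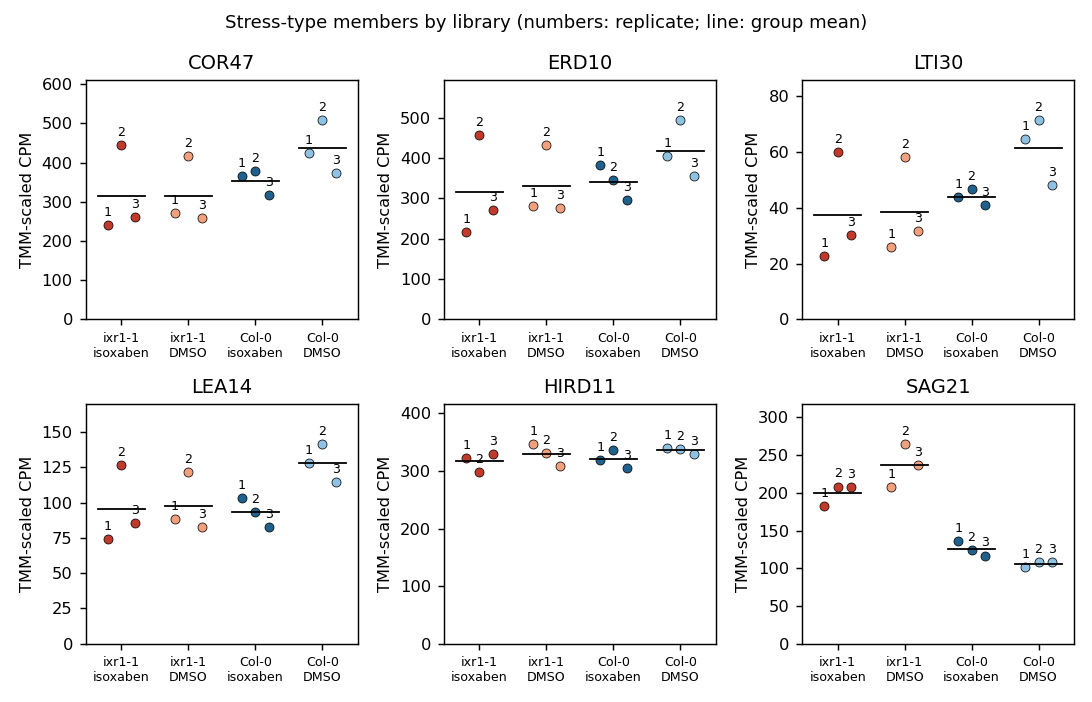
TMM-scaled CPM by library for 6 stress-type members, with the replicate number at each point and a line at each group mean. For COR47, ERD10, LTI30 and LEA14 the points numbered 2 stand apart in both ixr1-1 groups, HIRD11 stays between 298.7 and 346.8 CPM in all 12 libraries, and SAG21 separates the genotypes.

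HIRD11 and AT2G44060 showed how level other abundant members were. HIRD11 had 322.1, 298.7 and 329.2 CPM in ixr1-1 in isoxaben, 346.8, 331.4 and 308.8 CPM in ixr1-1 in DMSO, 319.5, 336.9 and 304.4 CPM in Col-0 in isoxaben, and 339.8, 337.7 and 329.3 CPM in Col-0 in DMSO, with overlapping groups. AT2G44060 lay between 293.5 and 325.9 CPM in all 12 libraries. ERD14 had 515.0, 684.4 and 498.3 CPM in ixr1-1 in isoxaben, 561.7, 684.1 and 528.7 CPM in ixr1-1 in DMSO, 602.0, 564.3 and 472.9 CPM in Col-0 in isoxaben, and 588.6, 659.3 and 551.3 CPM in Col-0 in DMSO, so library 2 of ixr1-1 was the highest of its group here too. AT2G23120 had 151.8, 203.9 and 180.4 CPM in ixr1-1 in isoxaben, 163.4, 211.1 and 157.3 CPM in ixr1-1 in DMSO, 164.5, 169.6 and 142.1 CPM in Col-0 in isoxaben, and 180.1, 202.5 and 166.8 CPM in Col-0 in DMSO.

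COR15A had 0.543, 1.49 and 1.59 CPM in ixr1-1 in isoxaben and 1.05, 2.05 and 0.487 CPM in ixr1-1 in DMSO, beside the Col-0 values above, and the genotypes overlapped in DMSO and in isoxaben. Its log2 fold change of ixr1-1 over Col-0 was 0.91 ± 0.56 (SE) in isoxaben and -0.27 ± 0.46 (SE) in DMSO. AT3G02480, a small protein that abscisic acid and drought induce, had 3.99, 4.04 and 6.94 CPM in ixr1-1 in isoxaben, 6.54, 4.68 and 6.43 CPM in ixr1-1 in DMSO, 4.06, 5.67 and 7.74 CPM in Col-0 in isoxaben, and 4.64, 4.57 and 9.33 CPM in Col-0 in DMSO. LEA4-5 of the LEA_1 group, which drought induces in leaves, had 2.54, 2.41 and 2.05 CPM in ixr1-1 in isoxaben, 3.27, 2.82 and 2.73 CPM in ixr1-1 in DMSO, 2.41, 4.18 and 3.56 CPM in Col-0 in isoxaben, and 4.71, 4.71 and 2.67 CPM in Col-0 in DMSO. Neither was called, though without Col-0 DMSO library 3 LEA4-5 was lower in ixr1-1 in DMSO at -0.69 (adjusted p 0.041, edgeR). LEA7, of the LEA_4 group, had 1.18, 0.496 and 1.32 CPM in ixr1-1 in isoxaben, 1.64, 1.29 and 1.46 CPM in ixr1-1 in DMSO, 0.966, 1.26 and 1.67 CPM in Col-0 in isoxaben, and 1.02, 0.703 and 1.73 CPM in Col-0 in DMSO, with overlapping genotypes.

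The unassigned LEA3 was set apart by Col-0 libraries in place of ixr1-1 ones. It had 8.69, 5.03 and 8.92 CPM in ixr1-1 in isoxaben, 7.36, 6.49 and 5.06 CPM in ixr1-1 in DMSO, 8.02, 17.3 and 5.93 CPM in Col-0 in isoxaben, and 11.0, 18.8 and 6.18 CPM in Col-0 in DMSO. Library 2 was the highest of its group in both Col-0 media, and the genotypes overlapped. Across the 12 libraries, the genes most like COR47 by Pearson correlation of log2 CPM were LTI78 (0.993), the dehydration gene also known as RD29A, AT2G45820 (0.984), GolS3, which makes galactinol in the cold (0.978), and the members LTI30 (0.974) and ERD10 (0.972), a description over libraries that share flasks and depth. For COR15A they were AT2G23120 (0.893), AT1G71950 and ACHT2 (both 0.881).

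The genes that are known to act on the family were read from lists. Of 13 genes of the cold and dehydration regulon outside the family, 10 were tested. RHL41, the zinc finger protein ZAT12 of oxidative and cold stress, was the only one called in Col-0 after isoxaben, at 6.16 ± 0.561 CPM in isoxaben and 3.41 ± 0.185 CPM in DMSO (SD, n = 3 each; log2 fold change 0.85, adjusted p 0.0076 in edgeR). In DMSO it stood at 6.13 ± 0.809 CPM in ixr1-1 (log2 fold change over Col-0 of 0.87, adjusted p 0.00067), and its interaction was called at -1.02 (adjusted p 0.0498). LTI65, also known as RD29B, an abscisic acid reporter, was higher in ixr1-1 in DMSO (1.65, adjusted p 0.0032) and in isoxaben (1.24, adjusted p 0.033). CBF1, CBF2 and DREB1A, whose proteins bind CCGAC, had 0 to 6 counts in every library.

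The summed level of that regulon was 286.5, 432.4 and 300.9 CPM in ixr1-1 in isoxaben, 286.0, 422.8 and 282.0 CPM in ixr1-1 in DMSO, 363.9, 402.9 and 329.5 CPM in Col-0 in isoxaben, and 445.5, 532.6 and 381.6 CPM in Col-0 in DMSO, with library 2 the highest of each of the 4 groups. Of 26 genes of abscisic acid synthesis, turnover and signalling, 21 were tested and 0 were called higher in any comparison. ABF3, a bZIP factor that binds ACGTG elements, was lower in ixr1-1 in DMSO (-0.47, adjusted p 0.00067) and in isoxaben (-0.32, adjusted p 0.016), the phosphatase gene HAB1 was lower in DMSO (-0.24, adjusted p 0.024), and CYP707A1, which degrades abscisic acid, was lower in isoxaben (-0.57, adjusted p 0.026). Of 15 seed maturation regulators 6 were tested, and EEL, a bZIP factor of the embryo that acts on EM1, was the only one called, higher in ixr1-1 in DMSO (0.68, adjusted p 0.0018). The rest had too few counts to be tested, so a difference in them was neither shown nor excluded. FUS3 had 2, 2 and 12 counts in ixr1-1 in isoxaben and 1, 6 and 4 in ixr1-1 in DMSO. In Col-0 it had 0, 0 and 0 in isoxaben and 0, 0 and 1 in DMSO. In the same order, LEC2 had 1, 4 and 4, then 3, 4 and 0 in ixr1-1, and 4, 7 and 5, then 5, 4 and 3 in Col-0. ABI3 had 3, 5 and 9, then 2, 11 and 5 in ixr1-1, and 1, 8 and 3, then 4, 0 and 2 in Col-0. DPBF2 had 1, 2 and 7, then 0, 6 and 0 in ixr1-1, and 0, 0 and 1, then 0, 0 and 0 in Col-0. NF-YB6 had 2, 8 and 5, then 1, 6 and 2 in ixr1-1, and 1, 4 and 1, then 2, 0 and 1 in Col-0. DOG1, LEC1, ABI4 and BZIP53 are left out here, and no direction is read from these counts. Of 8 shoot markers 4 were lower in ixr1-1 in each medium, and of 11 root markers 1, TIP2;3, was lower in ixr1-1 in DMSO, and 1, SHV2 of root hairs, was higher in ixr1-1 in isoxaben and lower in Col-0 after isoxaben.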

How the data were processed

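Libraries were made with a stranded mRNA kit from 500 ng of total RNA, per the labels' protocols. STAR 2.4.1, featureCounts 1.4.6, FastQC 11.1 and bcl2fastq are listed, with no role, in the submitters' processing notes. The sources used here give no genome build, annotation or strand setting. Reads from both strands of a shared exon may therefore be mixed, which by the exons in the files concerned 2 members (AT2G18340 and AT3G22490). In RefSeq's annotation 4 members share bases with another gene at the same place. They are SAG21 (180 bases with AT4G04125), COR15B (468 with AT2G42520), AT2G23120 (144 with AT2G23118) and UNE15 (221 with AT4G06105 and 125 with AT4G06110). The authors deposited raw counts per gene, 1 file per library, as the file headers show. Splice-site letters (GT and AG) flanked 98.0% of 116985 introns implied by the files when read on TAIR10.1. No member had a copy elsewhere of at least 95% identity over 100 bases.

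After filterByExpr and TMM scaling, the quasi-likelihood test of edgeR 4.0.16 (robust, R 4.3.3) was run in 1 model over 12 libraries with a term per group. P-values were adjusted by Benjamini-Hochberg over 20379 genes within each of 5 comparisons, at a threshold of 0.05. Alternatives used DESeq2 1.42.0, limma-voom 3.58.1, other scalings and filters, blocks and left-out libraries. Ratios of summed counts carry exact 95% conditional binomial intervals. Likeness used log2(CPM + 0.5). Values in every library are given for called members, the 3 highest of each type per kb and a fixed set (EM1, EM6, COR15A, COR15B, COR47, ERD10, RAB18, LTI30 and SAG21). LEA14, LEA3, AT2G44060, AT5G44310, M10 and the genes most like COR47 were chosen later, from their values. The members and lists were chosen with earlier results of these data known.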

Additional observations from a re-analysis of the deposited data

How the results depend on the processing

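No member was called for isoxaben in ixr1-1 under any alternative. In Col-0 the count of 0 became 1 with only the groups compared (LEA14) and 1 without both ixr1-1 libraries numbered 2, and it stayed 0 to 0 when each library was left out in turn. Between genotypes in DMSO the count of 3 became 6 with no filter (AtLEA4-1, AT5G44310 and EM1 in addition), 11 without both ixr1-1 libraries numbered 2, and 3 to 8 when each library was left out, with 8 without ixr1-1 DMSO library 2 (AT5G44310, AT3G15670, AT3G17520, AT3G53040 and M17 in addition). In isoxaben the count of 4 became 2 with at least 1 CPM in 6 libraries, since AT2G21490 and M17 were then too low to be tested. It became 2 with a fold of at least 2, 7 without both ixr1-1 libraries numbered 2, and 3 to 6 when each library was left out. In DMSO the same CPM filter left AT2G21490 and AT4G21020 untested, and ECP63 was called in addition (adjusted p 0.047, edgeR). For the interaction the count of 0 became 1 with DESeq2 and 0 to 1 when each library was left out. With the storage level as a covariate the genotype count became 0 in both media. The log2 fold changes of members called before ran from -0.0054 for SAG21 to 3.77 for M17, both in isoxaben. The storage sums of the genotypes do not overlap, so that fit cannot tell genotype from storage level, and no conclusion is drawn from it. The other scalings moved no count by more than 1.5 times. The member counts under these alternatives stand without the share of all genes called in each fit, and so do not set the family apart. Leaving out both ixr1-1 libraries numbered 2 was chosen after the values were seen, so the calls gained there are no test. The replicate numbers were not taken to pair the libraries: same-numbered libraries of the 2 media deviated together with r of 0.0304 to 0.312 in ixr1-1 and 0.03 to 0.205 in Col-0, and every library correlated best with its own number in Col-0, but ixr1-1 isoxaben library 3 did so with DMSO library 1 (0.114). With a replicate block by genotype and number, 3 members were called lower after isoxaben in Col-0 (LEA14, COR47 and LTI30) and 2 in the interaction (LEA14 and SAG21, adjusted p 0.044 and 0.0073). With a replicate block by number, 5 were called between genotypes in DMSO, with ECP63 higher and COR47 lower in addition. The block by genotype and number was not run for genotype comparisons, since each such block holds 1 genotype. Counts of 0 to 20 per library behind most seed-type members limit what could be called.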
